A study of Mus musculus with 8 samples.

Results

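Zc3h12a encodes Regnase-1, an endoribonuclease that cuts messenger RNAs of inflammation. It is described here together with 8 related regulators of mRNA decay, in Paneth cells of mice that drank water with or without zinc. The 9 genes were taken by symbol from the 55414 gene IDs of the count table: Zc3h12a, Zc3h12b, Zc3h12c, Zc3h12d, Rc3h1, Rc3h2, Zfp36, Zfp36l1 and Zfp36l2. Zc3h12a was singled out because of its difference between zinc and water in these libraries, and the other 8 were added because they are its relatives in sequence or function. The zinc against water values of these 9 genes are therefore given as a description, without a test. Enough counts for the comparison were present for 7 of the 9, and Zc3h12b and Zc3h12c fell under the low-count filter.

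The animals were C57BL/6J mice. The 4 control mice drank Milli-Q water, and the 4 zinc mice drank water with 25 mM ZnSO4, both for 7 days. Age and sex were not given in the sources used here. Paneth cells, the secretory cells at the base of the crypts, were sorted by fluorescence from a single cell suspension of the small intestine, and a stranded mRNA library was sequenced for each mouse. The libraries held 20760764 to 24117111 counts, and 3 counts corresponded to 0.115 to 0.188 CPM. CPM are counts scaled to a common library size, here by the TMM method, which corrects for differences in RNA composition. The defining Paneth cell markers were abundant in every library, and each of the 6 listed (Lyz1, Defa24, Defa30, Itln1, Mmp7, Ang4) had at least 106707 counts in each. Their sum varied between mice, from 353831 to 690968 CPM with water and from 335039 to 688761 CPM with zinc. These sums carry the TMM scaling, whose factors ran from 0.764 to 1.213 with water and from 0.775 to 1.225 with zinc. Their spread therefore does not measure marker content alone.

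An mRNA is usually degraded after its poly(A) tail is shortened by the CCR4-NOT complex, its cap is removed, and exonucleases digest it from either end. Proteins with CCCH zinc fingers, in which 3 cysteines and 1 histidine hold a zinc ion, choose which mRNAs enter this route. Regnase-1 cuts stem-loops in the 3′ untranslated region (UTR) of transcripts such as Nfkbiz, Il6 and its own. The Roquin proteins, encoded by Rc3h1 and Rc3h2, bind similar stem-loops and recruit CCR4-NOT. Tristetraprolin and its relatives, encoded by Zfp36, Zfp36l1 and Zfp36l2, do the same at AU-rich elements.

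The CCCH fingers show how the 3 families relate. The stretches below encode the first finger of 5 members that were expressed, 5′ to 3′ on the coding strand, with the codons of the 3 cysteines and the histidine in capitals.
Zc3h12a: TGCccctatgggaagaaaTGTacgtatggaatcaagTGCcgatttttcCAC
Zc3h12d: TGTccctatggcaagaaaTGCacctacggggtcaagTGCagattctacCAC
Rc3h1: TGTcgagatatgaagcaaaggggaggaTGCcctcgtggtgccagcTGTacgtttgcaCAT
Zfp36: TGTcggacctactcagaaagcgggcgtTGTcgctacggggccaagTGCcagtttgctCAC
Zfp36l2: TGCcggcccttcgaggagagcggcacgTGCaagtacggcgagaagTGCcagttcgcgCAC
In the 4 Zc3h12 genes, 5 codons separate the first pair of cysteines, and in the Roquin and Zfp36 genes 8 codons do. The second spacing was 5 codons and the third 3 codons in all 12 fingers found. The 3 Zfp36 genes carry 2 fingers each and the other members 1. Finger codons 306 to 322 of Zc3h12a are in coding exons on GRCm39 chr4:125013897-125014128, minus strand, where 51 coding bases are spread over 232 genomic bases. The finger of Zc3h12a shared 41 of 51 coding bases with Zc3h12c and with Zc3h12d, and 35 of 51 with Zc3h12b.

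The 3′ UTRs were searched for short perfect hairpins of the kind that Regnase-1 and Roquin bind. The pattern was 6 paired bases on each side of a loop of 3 bases, with a loop that ran pyrimidine, purine, pyrimidine. It was chosen after the sequences had been looked at. The sites of Zc3h12a, of its known target Nfkbiz and the site shared by both Roquin genes are shown as DNA, with the loop in capitals.
Zc3h12a, site 1: gatacaCATtgtatc
Zc3h12a, site 2: aggcacCATgtgcct
Zc3h12a, site 3: tttaaaTATtttaaa
Nfkbiz, site 1: tgtttcTATgaaaca
Nfkbiz, site 2: cactatTATatagtg
Rc3h1 and Rc3h2: aacttcTGTgaagtt
The 3 hairpins of Zc3h12a start at bases 196, 378 and 602 of its 856-base 3′ UTR, which lies on GRCm39 chromosome 4. The first is at chr4:125012862-125012876, the second at chr4:125012680-125012694 and the third at chr4:125012456-125012470, all on the minus strand. Among 11851 canonical 3′ UTRs of at least that length, 5.08% held such a hairpin in their first 856 bases, and 1, that of Zc3h12a, held 3. With 5 paired bases in place of 6, 14 of them (0.118%), Zc3h12a included, held 3 or more. Nfkbiz held 2 in a 3′ UTR of 1355 bases, against 0.435% of 8969 3′ UTRs with as many in that length. Rc3h1 held 4 such hairpins, of which a pair overlap, in a far longer 3′ UTR of 7181 bases. It was the 1 with as many among 267 3′ UTRs of at least that length. With 5 paired bases, as many as in Nfkbiz occurred in 272 (3.03%) of the 8969. As many as in Rc3h1 then occurred in 16 (5.99%) of the 267, so these shares depend on the stem length chosen. Zc3h12c and Rc3h2 held 1 each, and Zc3h12b, Zc3h12d, Zfp36, Zfp36l1 and Zfp36l2 held 0. The same 15 bases occurred in Rc3h1 (chr1:160799230-160799244, plus strand) and Rc3h2 (chr2:37263821-37263835, minus strand). A match in letters is not evidence that a site is used.

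Zc3h12a (ENSMUSG00000042677, GRCm39 chromosome 4, 125012216 to 125021711, minus strand, 5 merged exons) stood lower in every zinc mouse than in every water mouse. The water mice, here and below in the order of replicates 1 to 4, had 15.8, 17.4, 18.6 and 13.7 CPM, and the zinc mice, in the same order, had 6.77, 7.00, 5.45 and 7.10 CPM. The groups were well apart, and no library stood out within its group. The water mean was 16.4 ± 2.11 CPM (SD, n = 4), and the zinc mean was 6.58 ± 0.764 CPM (SD, n = 4). The edgeR log2 fold change was -1.32 (SE 0.16), or a level 2.49-fold lower with zinc. These values rest on 253 to 440 counts per water library and 114 to 183 per zinc library. In bulk libraries of sorted cells, fewer cells that express a gene and less of its RNA per cell cannot be told apart.

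**Figure D1:**
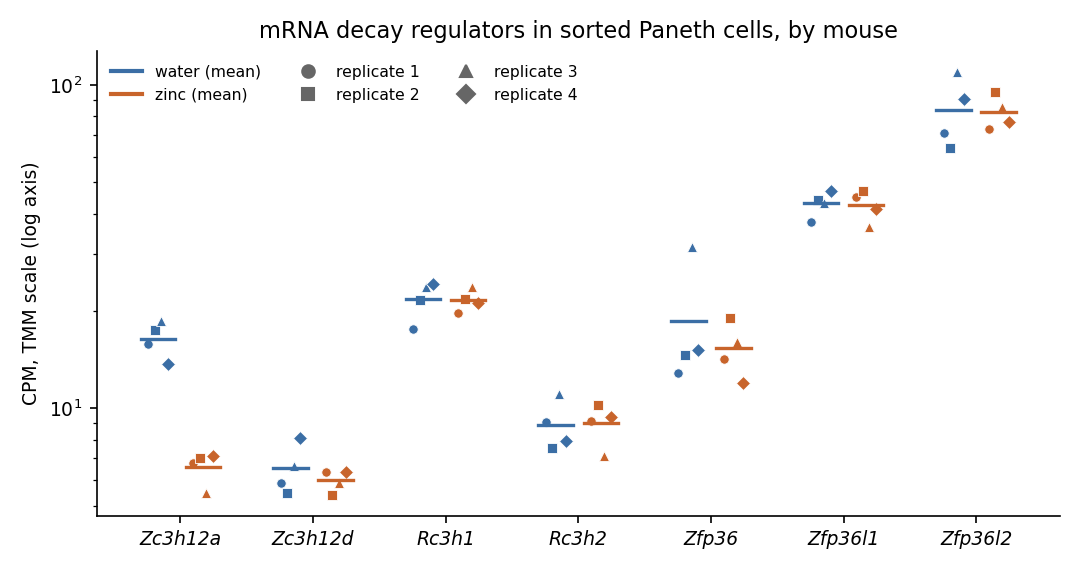
CPM on the TMM scale (log axis) of the 7 compared regulators in each mouse, with water in blue, zinc in orange, 1 marker shape per replicate number and a bar at the group mean (n = 4 each). The 4 zinc points of Zc3h12a lie between 5.45 and 7.10 CPM, under all 4 water points, while the groups overlap in the other 6 genes.

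Over all 11988 genes compared, edgeR called 10 (0.0834%), 7 (0.0584%) lower and 3 (0.025%) higher with zinc. Zc3h12a, which was chosen by its difference in this comparison, was among the 7, so its place there is the reason for its choice and not a test of it. The other 6 compared members were outside the 10. The groups did not overlap in 1 of the 7 members, against 2.84% of all genes compared, of which 1.59% were lower and 1.24% higher with zinc. Nothing can be read from the share of the members, since the same difference chose Zc3h12a.

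Zc3h12d (ENSMUSG00000039981, chromosome 10, 7708080 to 7746160, plus strand), which encodes the related protein Regnase-4 and is known mainly from lymphocytes, was the other member of the Regnase family that was clearly expressed. The water mice had 5.88, 5.46, 6.64 and 8.10 CPM, and the zinc mice had 6.35, 5.41, 5.89 and 6.36 CPM. The groups overlapped almost entirely. The log2 fold change was -0.12 (SE 0.19, 95% interval -0.52 to 0.28). The T cell markers Cd3d, Cd3e, Cd3g, Cd2 and Trac had 0 counts in all 8 libraries. The 4 B cell markers together reached 0.659 CPM at most, and the 5 myeloid markers 2.10 CPM.

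Zc3h12b and Zc3h12c, which encode Regnase-2 and Regnase-3, were near the detection limit. Zc3h12b had 6, 0, 13 and 0 counts in the water mice, against 1, 0, 1 and 0 counts in the zinc mice. Zc3h12c had 0, 14, 6 and 0 counts with water and 3, 3, 0 and 0 with zinc. Both groups held libraries with 0 counts, and the difference between the groups was not tested for either gene. The transcripts of the Regnase family in these libraries were thus mainly those of Zc3h12a and Zc3h12d.

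The Roquin genes overlapped between the groups. Rc3h1 (ENSMUSG00000040423, chromosome 1, 160733982 to 160802548, plus strand), which encodes Roquin-1, had 17.6, 21.6, 23.6 and 24.2 CPM with water and 19.7, 21.8, 23.8 and 21.2 CPM with zinc. Its log2 fold change was -0.01 (SE 0.13, 95% interval -0.29 to 0.26). Rc3h2 (ENSMUSG00000075376, chromosome 2, 37258909 to 37313172, minus strand), which encodes Roquin-2, had 9.07, 7.52, 11.0 and 7.90 CPM with water and 9.14, 10.2, 7.11 and 9.42 CPM with zinc. Its log2 fold change was 0.01 (SE 0.18, 95% interval -0.36 to 0.39). The zinc mice of both genes lay inside the range of the water mice, except for zinc replicate 3 of Rc3h2, which lay below it.

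The Zfp36 genes did not separate by treatment either. Zfp36 (ENSMUSG00000044786, chromosome 7, 28076209 to 28079710, minus strand), an early response gene that encodes tristetraprolin, had 12.9, 14.6, 31.6 and 15.2 CPM with water and 14.2, 19.1, 16.1 and 11.9 CPM with zinc. Water replicate 3 stood far above the other 3 water libraries, and the remaining 7 libraries overlapped. The log2 fold change of -0.28 (SE 0.28, 95% interval -0.89 to 0.33) rested on that library, since without it the value was 0.10. Zfp36l1 (ENSMUSG00000021127, chromosome 12, 80154528 to 80160006, minus strand) had 37.7, 44.2, 43.2 and 47.2 CPM with water and 45.2, 46.9, 36.5 and 41.3 CPM with zinc. Its log2 fold change was -0.02 (SE 0.12, 95% interval -0.27 to 0.22). Zfp36l2 (ENSMUSG00000045817, chromosome 17, 84491132 to 84495382, minus strand) had 71.1, 63.8, 109.9 and 90.4 CPM with water and 73.0, 95.3, 85.8 and 76.9 CPM with zinc. Its highest value was again in water replicate 3, and its log2 fold change was -0.02 (SE 0.15, 95% interval -0.34 to 0.31).

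**Figure D2:**
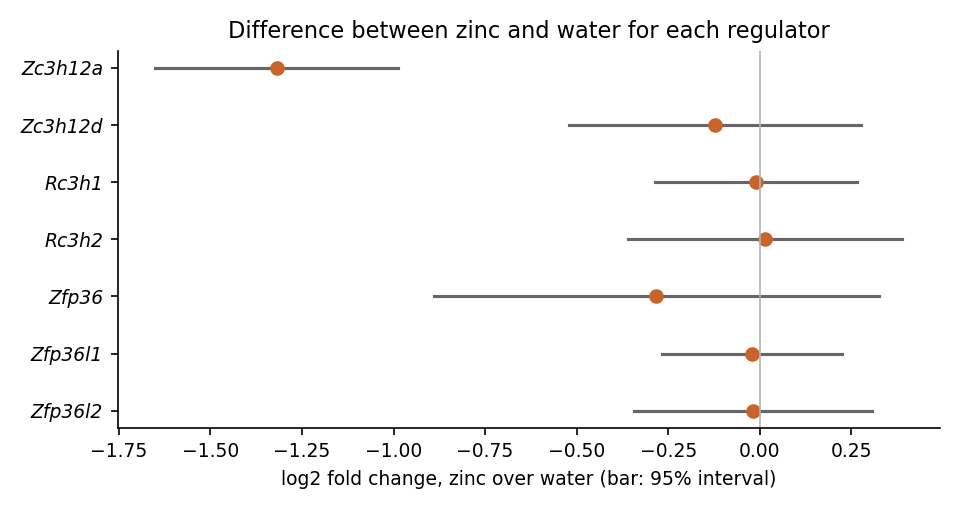
Log2 fold change of zinc over water (points) with the 95% interval of the edgeR fit (bars) for the 7 compared regulators. The interval of Zc3h12a runs from -1.65 to -0.99, and those of the other 6 genes include 0.

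The members differed in how steady they were from mouse to mouse. The coefficient of variation (SD over mean) of Zc3h12a was 12.9% with water and 11.6% with zinc, where counting alone would give 5.24% and 8.30%. Zfp36 varied most among the 7, by 47.1% with water and 19.7% with zinc, against 4.86% and 5.45% from counting. Zfp36l1 was the steadiest with water, at 9.23%. Zc3h12d with zinc, at 7.57%, varied by no more than counting would give (8.67%). Few annotated genes overlap the members on the genome, and the overlapping ones had at most 5 counts in a library. How reads in shared stretches were counted is not known, so reads of the members may be missing there. Rc3h1 has same-strand overlaps of 1831, 931 and 3578 bases.

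Levels between genes were compared per length, as CPM per kb of merged exons, which does not involve the zinc contrast for 6 of the 7 genes. Zfp36l2 was highest, with 22.1 ± 4.00 CPM per kb (SD, n = 8), above 95.2% of all genes compared. It was followed by Zfp36l1 with 13.3 ± 1.25, Zfp36 with 4.84 ± 1.80, Rc3h1 with 1.90 ± 0.195, Zc3h12d with 0.993 ± 0.137 and Rc3h2 with 0.406 ± 0.0615 CPM per kb. For Zc3h12a the water mice averaged 4.22 ± 0.542 CPM per kb and the zinc mice 1.69 ± 0.196 CPM per kb (SD, n = 4 each). Among the 7 genes it ranked 3, 3, 4 and 4 in the water mice, against 4, 5, 5 and 5 in the zinc mice. With water its level lay beside that of Zfp36, and with zinc beside that of Rc3h1. Reads of Rc3h1 may be missing where other genes overlap it, so its level per kb may be too low.

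The order was tested between neighbours within each library, by an exact two-sided sign-flip permutation test over 8 libraries for 6 pairs, in which p cannot go below 0.00781. Zfp36l2 exceeded Zfp36l1 by 0.71 ± 0.26 (SD) on the log2 scale per kb, and Zfp36l1 exceeded Zfp36 by 1.52 ± 0.43. Rc3h1 exceeded Zc3h12d by 0.92 ± 0.19, and Zc3h12d exceeded Rc3h2 by 1.30 ± 0.29. Each of these 4 differences was in the same direction in 8 of 8 libraries (exact permutation, adjusted p = 0.0117). The adjustment covered all 6 pairs, those with Zc3h12a included. The neighbours and their order came from the means over these same 8 libraries, so the test describes how steady that order was. Their sizes depend on the length used for each gene, which the SD does not cover. With the longest single transcript as length, the differences were 0.71, 1.21, 0.39 and 0.79 in the same order. The place of Zc3h12a in the order is given as a description, since its low zinc values were what chose it. Zfp36 exceeded it by 0.79 ± 0.71 over the 8 libraries, but by 0.24 over the water libraries alone. It exceeded Rc3h1 by 0.50 ± 0.74 over the 8 libraries and by 1.15 over the water libraries alone.

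**Figure D3:**
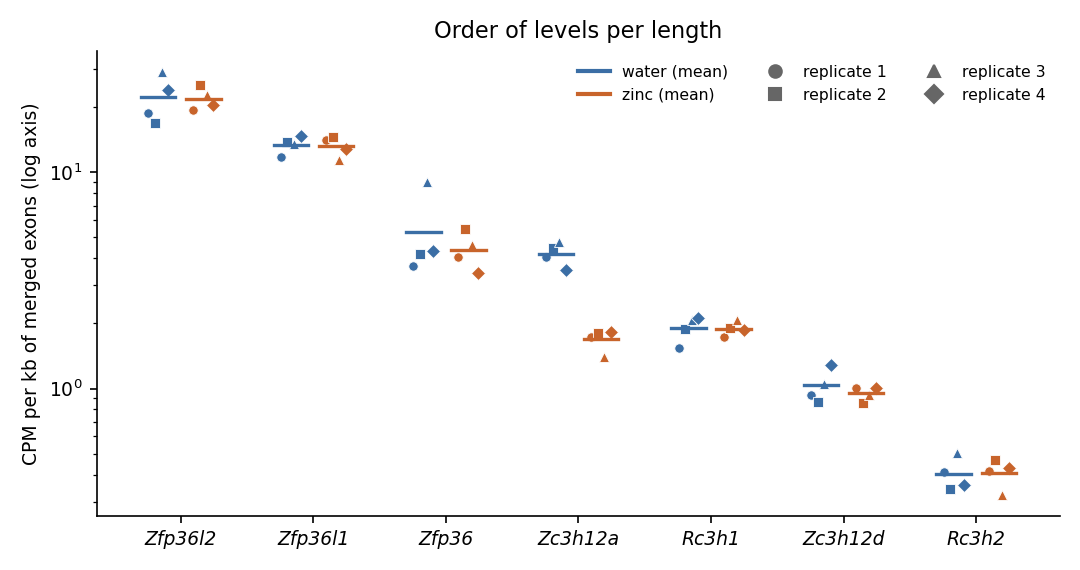
CPM per kb of merged exons (log axis) of the 7 compared regulators in order of their mean over 8 libraries, with water in blue, zinc in orange and a bar at each group mean. Zfp36l2 and Zfp36l1 lead in every library, Rc3h2 is last in every library, and Zc3h12a moves from beside Zfp36 to beside Rc3h1.

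The genes around these regulators were described by 9 lists with 185 genes, of which 164 had enough counts. None of the 164 passed the edgeR test over all genes, and DESeq2 and limma-voom also called 0, where they called 0.284% and 0.0918% of all genes. An unadjusted edgeR p below 0.05 was found in 9 of them (5.49%), 8 lower and 1 higher with zinc. Over all 11988 genes the share was 4.65%, with 2.81% lower and 1.84% higher. The median log2 fold change was -0.03 over the 164 genes and 0.01 over all genes.

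The differences in the machinery that carries out decay centred near 0. Deadenylation (19 of 19 genes compared) had a median log2 fold change of 0.00, with 10 genes above and 9 below 0. Its most abundant members were Pabpc1, the poly(A) binding protein, at 902.2 CPM with water and 854 with zinc, and Cnot1, the scaffold of CCR4-NOT, at 113 and 123 CPM. Pan3, a subunit of the PAN2-PAN3 deadenylase, had the smallest p of the list (log2 fold change -0.46, SE 0.23, edgeR adjusted p = 0.998). Decapping and 5′ to 3′ decay (18 of 19 compared) had a median of 0.05, with 13 genes above and 5 below 0. Lsm2, a subunit of the ring that binds shortened tails, had 10.1, 12.1, 9.14 and 12.4 CPM with water, all below the 13.0, 14.6, 13.7 and 14.2 CPM with zinc (log2 fold change 0.34, SE 0.15, edgeR adjusted p = 0.998). The exosome and its Ski cofactors (17 of 18 compared) had a median of 0.03, and the smallest p belonged to Skic3 (log2 fold change 0.32, SE 0.16, edgeR adjusted p = 0.998).

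Nonsense-mediated decay, the pathway of Upf1, which also works with Regnase-1, had small differences with mostly 1 sign. Of 15 genes, 14 were below 0, while 48.1% of all genes compared were, and the median log2 fold change was -0.10. Unadjusted edgeR p was below 0.05 in 0 of the 15. Several signs were not stable over the 15 alternative fits, such as those of Upf1 (-0.15 to 0.06) and Eif4a3 (-0.10 to 0.02). The count of signs is therefore a description and no evidence of a direction. The 2 most abundant were Eif4a3 (46.7 CPM with water, 45.6 with zinc) and Upf1 (46.4 and 45.2 CPM). The smallest p was that of Smg5 (log2 fold change -0.25, SE 0.14, edgeR adjusted p = 0.998). Other UTR binding proteins and Argonaute genes (17 of 17 compared) had a median of 0.06, led in abundance by Hnrnpab (272 and 291 CPM) and Ybx1 (242 and 281 CPM). Ago4 had the smallest p there (log2 fold change -0.82, SE 0.38, edgeR adjusted p = 0.998).

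The further CCCH genes lay evenly around 0. All 38 were compared, and their median log2 fold change was -0.03, with 17 above and 21 below 0. Mbnl2, a splicing regulator, averaged 95.4 CPM with water and 95.8 with zinc, and Zc3hav1, the antiviral protein ZAP, at 57.6 and 59.3 CPM. Zc3h6 had the smallest p (log2 fold change -1.44, SE 0.69, edgeR adjusted p = 0.998), but its level was low and uneven, with 78 counts in water replicate 3 and 4 to 18 counts in the other 7 libraries.

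Regnase-1 protein is controlled by kinases and proteases that act after inflammatory signals, such as the IKK complex and the paracaspase Malt1. All 16 listed genes of this control were compared, 5 above and 11 below 0, with a median log2 fold change of -0.10. The most abundant were Irak1 (76.9 CPM with water, 86.1 with zinc) and Usp10 (35.5 and 36.0 CPM). Ikbke, an IKK-related kinase, had the smallest p (log2 fold change -0.37, SE 0.18, edgeR adjusted p = 0.998).

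**Figure D4:**
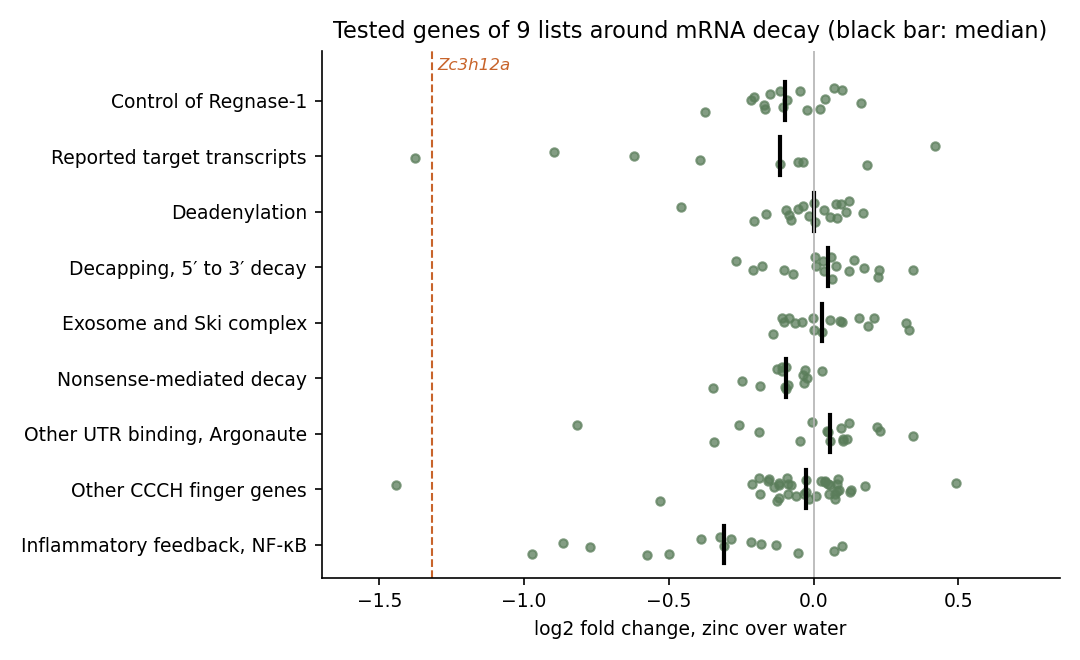
Log2 fold change of zinc over water (points) for the 164 compared genes of 9 lists, with a black bar at each list's median and a dashed line at Zc3h12a. Medians lie between -0.12 and 0.06 in 8 lists and at -0.31 in the list of inflammatory feedback genes. A few genes appear far to the left of 0, of which Zc3h6 and Nfkbiz reach beyond Zc3h12a.

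Reported target transcripts of Regnase-1, Roquin and tristetraprolin were mostly too low to compare, and 9 of 28 passed the low-count filter. Il6, Il12b, Il1b, Il10, Icos, Ctla4, Cxcl1, Cxcl2, Cxcl3, Ccl2, Ccl3 and Csf2 had 0 counts in every library, which is 12 of the 28. Of the 9, 7 were below 0 and the median log2 fold change was -0.12. Nfkbiz, which encodes the NF-κB cofactor IκBζ, had 17.0, 20.8, 20.7 and 12.0 CPM with water and 13.4, 5.26, 3.63 and 5.24 CPM with zinc. In 3 zinc mice it lay under all water mice, and zinc replicate 1 lay inside their range. The difference was -1.38 on the log2 scale (SE 0.40, edgeR adjusted p = 0.852). It passed the threshold in 2 of 15 alternatives, which were library totals as the only scaling and the fit without zinc replicate 1, and its adjusted p ran from 0.00297 to 1.00 over them. Tfrc, the transferrin receptor, had 76.7, 92.1, 71.2 and 78.3 CPM with water and 74.3, 55.2, 48.6 and 64.2 CPM with zinc (log2 fold change -0.39, SE 0.13, edgeR adjusted p = 0.866). Again zinc replicate 1 lay among the water mice and the other 3 zinc mice below them. Myc averaged 40.7 CPM with water and 39.3 with zinc (log2 fold change -0.05, SE 0.14).

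A pair of the 19 targets below the filter showed separate groups at very low counts, and they are named after their values were seen. The share of genes below the filter with separate groups was not computed, so nothing can be read from this pair. Tnf, a cytokine whose mRNA tristetraprolin destabilises, had 8, 21, 15 and 34 counts in the water mice, against 0, 0, 3 and 2 counts in the zinc mice. Lcn2, which encodes an iron-scavenging antimicrobial protein, had 6, 16, 13 and 27 counts with water and 0, 0, 4 and 6 with zinc. Without the low-count filter Tnf was called lower (edgeR adjusted p = 0.0138). Over the 6 alternatives in which Tnf could be fitted, its adjusted p ran from 0.0138 to 0.50. Lcn2 was called in 0 of the 6 in which it could be fitted, with an adjusted p from 0.405 to 0.998.

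Zc3h12a is itself switched on by NF-κB, along with other genes that damp or carry that response. Of 15 such feedback genes, all compared, 13 were below 0 (86.7%, against 48.1% of all genes), with a median log2 fold change of -0.31, and 0 passed the edgeR test. An unadjusted p below 0.05 was found in 5 of them, or 33.3%, all lower, against 2.81% of all genes compared. Nfkbia, which encodes the NF-κB inhibitor IκBα, had 25.9, 30.2, 32.9 and 27.8 CPM with water and 24.1, 18.4, 21.1 and 14.9 CPM with zinc, so that the groups did not overlap. The difference was -0.58 on the log2 scale (SE 0.15, edgeR adjusted p = 0.385), and it was called lower without the low-count filter (adjusted p = 0.0160) and in 0 of the other 14 alternatives. The most abundant of the list were Nfkb1 (32.5 and 28.7 CPM) and Cyld (25.6 and 23.4 CPM), with log2 fold changes of -0.18 (SE 0.14) and -0.13 (SE 0.12). Tnfaip3, the ubiquitin-editing protein A20, had a log2 fold change of -0.86 (SE 0.35), Tnip1, its partner, -0.50 (SE 0.20), Bcl3 -0.39 (SE 0.16) and Nfkb2 -0.31 (SE 0.14), and each had an edgeR adjusted p of 0.998. These lists were written with earlier results of these data known, so the counts are no independent evidence of a direction.

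**Figure D5:**
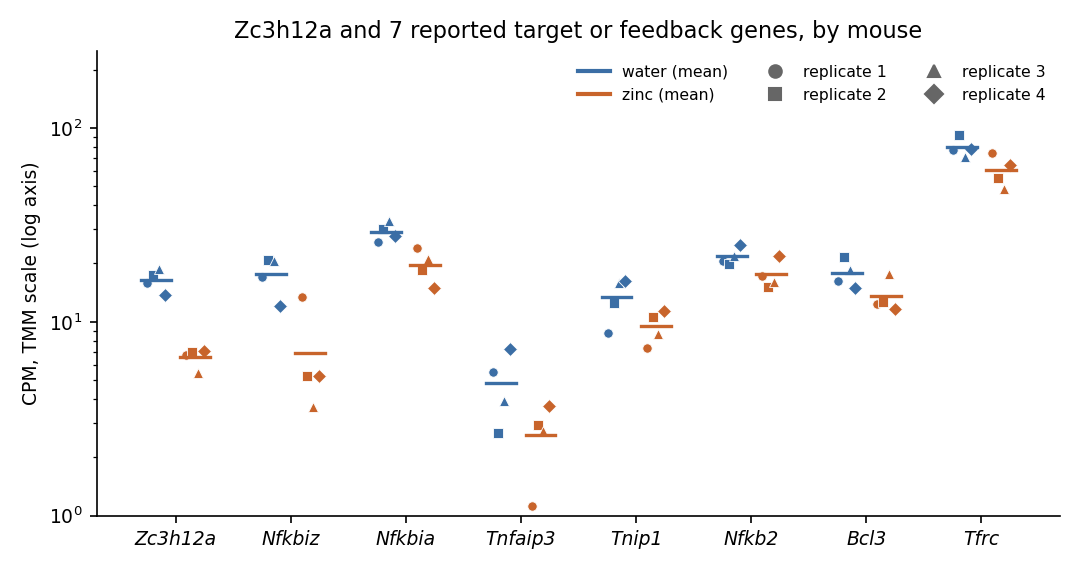
CPM on the TMM scale (log axis) of Zc3h12a and of the 7 target or feedback genes with an unadjusted p below 0.05, by mouse, with water in blue, zinc in orange and a bar at each group mean (n = 4 each). Zc3h12a and Nfkbia are the genes whose groups do not overlap, and zinc replicate 1 is the zinc mouse nearest to the water mice for Nfkbiz, Nfkbia and Tfrc.

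Markers of other cells were compared between the groups in the same libraries, since the sorted fraction can hold other cells. The enterocyte list took 37.9 to 58.6 CPM with water and 52.6 to 80.6 CPM with zinc, and the stem cell list, mostly Olfm4, 4160 to 5580 CPM with water and 2889 to 4235 CPM with zinc. Neither difference passed (exact two-sided permutation p = 0.0571, adjusted p = 0.210 over 11 lists). With 4 mice against 4 this p cannot go below 0.0286, so a list that separated the groups completely could still miss the threshold after adjustment, as the next list did. The B cell list took 0.115 to 0.188 CPM with water and 0.193 to 0.659 CPM with zinc (exact two-sided permutation p = 0.0286, adjusted p = 0.210), from at most 14 counts of any marker. The goblet, enteroendocrine, tuft and myeloid lists overlapped between the groups, and the stromal and endothelial lists had at most 5 counts of any marker. The part of these cells in the level of Zc3h12a was not tested.

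The genes most like Zc3h12a were ranked by Pearson's r of log2 CPM over the 8 libraries, which share the treatment and the scaling. They were Cap2 (r = 0.989), Enox2 (0.939), Ccdc112 (0.939), Peds1 (0.937) and Smarcd3 (0.936), all with a lower mean with zinc. When deviations from the group means were used instead, which leave out the treatment, the 5 nearest were Kbtbd3 (r = 0.975), Lactb (0.964), Dmxl2 (0.951), Spryd3 (0.937) and Mesp2 (0.934). No gene was in both sets. Each set holds the highest r among all genes compared. Over 8 libraries such values can arise by chance, and how many would do so was not computed. Cap2 kept the highest value of the first 5 on the second measure (r = 0.805). Among the members, Rc3h2 followed Zc3h12a most closely in its deviations (r = 0.735), and Zc3h12d least (r = -0.396). On log2 CPM over the 8 libraries, r was 0.128 for Rc3h2 and 0.205 for Zc3h12d.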

How the data were processed

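Gene expression was measured in 8 libraries of sorted Paneth cells, 4 per group. The authors deposited 1 table of read counts per Ensembl gene ID, not normalized. Per the labels, the processing notes name FastQC 0.12.0, STAR 2.7.0a, DESeq2 and build mm39. Sources used here do not name the counting program, its annotation, its strand setting or its handling of multimapping reads. IDs were matched to GENCODE M39 on GRCm39, which covered 54749 of 55414 IDs. The treatment effect was fitted with edgeR 4.0.16 (R 4.3.3; low-count filter with minimum count 10, TMM scaling, robust quasi-likelihood F test, treatment as the only term), with Benjamini-Hochberg adjustment over 11988 genes and a threshold of 0.05. SE was obtained by dividing the size of the log2 fold change by the root of F. Log2 CPM used a prior count of 2. Levels of members were compared by exact sign-flip tests, and marker lists by exact permutation tests over samples. With 4 mice per group, 1 library each, p-values measure the spread between these mice. No library pair within a group matched to within sampling noise. Sequences were read from GENCODE transcripts and GRCm39. The alternatives were RLE factors, library totals, DESeq2 1.42.0, limma-voom (limma 3.58.1), no filter, a replicate block, Defa genes left out and each library left out. The fit was tested on simulated data. The members, lists and naming rule were chosen with earlier results of these data known. By that rule, all members were named, and of each list the genes past the threshold, the gene with the smallest p and the 2 most abundant. The 5 genes most like Zc3h12a by each measure were also named. Lcn2, Tnf, Tnfaip3, Tnip1, Bcl3 and Nfkb2 were named after their values were seen.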

Additional observations from a re-analysis of the deposited data

Results flagged for a closer look

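Members, marker lists and library totals were checked for a single extreme library among the 4 of each group (Dixon's criterion, 95%). This picked out 3 libraries over 38 groups examined, where about 1 in 20 groups would be picked out by chance. The level of Zfp36 in water replicate 3 was 31.6 CPM, while the other 3 water mice lay between 12.9 and 15.2 CPM. The summed goblet cell markers in zinc replicate 4 reached 5695 CPM, while the other 3 zinc mice lay between 3425 and 3655 CPM. The summed stromal markers in water replicate 1 reached 0.313 CPM, from 5 counts, and had 0 counts in the other 3 water mice.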

How the results depend on the processing

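Zc3h12a kept its direction in all 15 alternatives, with log2 fold changes of -1.40 to -1.24 when a library was left out and -1.32 in each of the other 7. Zc3h12d also kept its sign in all 15 of them, and the signs of the other 5 compared members changed in 1 to 6. The genes called higher over all genes, 3 in the report, became 8 with DESeq2, 11 without the low-count filter, 6 with the replicate block and 0 to 5 without single libraries, and the genes called lower, 7 in the report, became 26, 55, 26 and 1 to 12. Among reported targets, 1 was called lower with library totals only, 1 without the low-count filter and 0 to 1 without single libraries. Among feedback genes, 1 was called lower without the filter. The log2 excess of Zfp36 over Zc3h12a per length ran from 0.67 to 0.93 without single libraries and was 0.24 with water libraries only. That of Zc3h12a over Rc3h1 was 1.15 with water libraries only. The marker list difference (zinc minus water) for Paneth cells was -1387 CPM with library totals only. Without single libraries it ran from -66432 to 68547 CPM. The other lists that changed sign then, none past the test, ran from -23.9 to 2.79 CPM (enteroendocrine), -0.530 to 0.0576 (myeloid), -10.2 to 16.8 (tuft) and -246 to 511 (goblet). The causes were not tested, except that leaving out the filter adds genes. The groups share replicate numbers, but deviations of same-numbered mice correlated by 0.233, 5.51e-05, 0.127 and 0.263. The main fit did not take the numbers as pairs, because replicate 2 showed no such correlation and the labels name nothing shared. However, water replicate 2 lay near 0 with every zinc mouse (-0.00362 to 0.00249), so its value cannot decide this. The TMM scaling factors went by number in water and zinc. They were 0.764 and 0.775 for replicate 1, 1.017 and 0.998 for replicate 2, 1.066 and 1.05 for replicate 3, and 1.213 and 1.225 for replicate 4. Still, the other 3 correlated best with their own number, and differently numbered mice reached 0.0397 at most, a hint from the data that they may share handling. The replicate block changed no call of a listed gene, but with it the edgeR adjusted p was 0.0685 for Nfkbia and 0.216 for Tfrc. Low counts per library limit what can be said of Zc3h12b, Zc3h12c and Tnf.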

Other observations

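In the 3′ UTRs of the Zfp36 family, the letters TATTTAT, the core of the AU-rich element that tristetraprolin binds, occurred 3 times each in Zfp36 (774 bases), Zfp36l1 (1835 bases) and Zfp36l2 (2049 bases). As many occurred in the same length of 0.774%, 3.34% and 4.09% of the canonical 3′ UTRs that were long enough. Rc3h2 held 4, Zc3h12c 3 and Rc3h1 2, in 3′ UTRs of 6336, 5833 and 7181 bases, and Zc3h12a, Zc3h12b and Zc3h12d held 0. The 300 bases before the start of each member's canonical transcript were also searched on both strands for the metal response element, spelled TGCACNC or TGCGCNC, and for the κB consensus. The metal response element occurred in Zfp36l2 alone among the 9 members and in 24.7% of 21627 promoters. The κB consensus occurred in Rc3h2 and Zfp36l1, and in 8.81% of all promoters. A missing match says only that these letters are not in this window.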
